A study of Mus musculus with 19 samples.

Results

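Replication-dependent histone genes were taken as the protein-coding rows of the count table whose names place them in the Hist1, Hist2, Hist3 or Hist4 clusters, which gave 67 genes of 54532 rows. They comprised 6 H1, 18 H2A, 18 H2B, 12 H3 and 13 H4 genes. The Hist1 cluster on chromosome 13 held 54 of them, Hist2 on chromosome 3 held 10, Hist3 on chromosome 11 held 2 and Hist4 on chromosome 6 held 1. Expression was measured by bulk RNA-seq in 19 obstructed kidneys of male mice on a C57BL/6J background, 8 to 9 weeks old, in which the left ureter had been tied and cut (unilateral ureteral obstruction, UUO). Wild-type (WT) mice and mice lacking CD5L, a secreted protein of tissue macrophages (CD5L KO), were injected intraperitoneally every day with recombinant CD5L (rCD5L, 0.5 mg per mouse) or the same volume of PBS, and the whole kidney was taken on day 12. There were 5 WT kidneys given PBS, 5 WT kidneys given rCD5L, 4 CD5L KO kidneys given PBS and 5 CD5L KO kidneys given rCD5L, labelled as biological replicates, and obstruction was common to all 4 groups. How the CD5L KO line was made is not given in the sources used here. Each library therefore mixed tubular, stromal and immune cells, and fewer cells of a type and less RNA per cell cannot be told apart.

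Replication-dependent histone genes supply the core and linker histones that package newly copied DNA, so their mRNA normally rises when a cell enters S phase and is destroyed when S phase ends. NPAT drives their transcription at the histone clusters. Unlike nearly all other mRNAs they normally carry no poly(A) tail and end just after a short stem-loop that is bound by SLBP, the stem-loop binding protein. A few of the genes also make longer, polyadenylated transcripts, and such forms are known from cells that no longer divide. The family can therefore be read both as a measure of proliferation and as a measure of how much RNA without a poly(A) tail entered a library. The preparation was described as random-hexamer priming of total RNA, and a poly(A) selection or rRNA depletion step was not given in the sources used here.

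The stem-loop is the element that sets these mRNAs apart, so its sequence is shown first. In the GENCODE M21 transcripts (build GRCm38) it was searched after the stop codon as a perfect 6-base-pair stem beginning GG around a 4-base loop beginning TTT, and 44 of the 67 members held it. It lay 21 to 58 bases after the stop codon, with a median of 31. The 16 bases of stem and loop were identical in 26 members, 7 others shared another form, and 6 shared yet another. The sites of 6 members with high levels or a germ-cell role are given 5′ to 3′ on the strand of the gene, with the paired arms of the stem in capitals.
Hist1h1c: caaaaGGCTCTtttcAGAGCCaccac
Hist3h2a: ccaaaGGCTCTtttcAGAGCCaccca
Hist1h4i: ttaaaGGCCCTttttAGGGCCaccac
Hist1h4h: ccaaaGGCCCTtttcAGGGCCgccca
Hist2h3c2: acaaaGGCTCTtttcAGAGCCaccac
Hist1h1t: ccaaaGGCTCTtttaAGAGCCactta
The arms of the H1, H2A and H3 genes shown are identical, and those of both H4 genes differ from them in the same way. The member with the highest level, Hist1h2bc, held no such site in its annotated transcript, which is spliced. Its coding exon (chr13:23684199-23684621, plus strand) joins a second exon (chr13:23692176-23692908) across an intron of 7554 bases, and the junction lies 9 bases after the stop codon. The 30 bases that span the junction, 15 from each exon, are given with the stop codon in capitals.
Hist1h2bc junction: aagTGAtcctgccaagaggagcagacctga
Hist1h2bc was 1 of 5 members with an exon junction, while 62 were annotated as a single exon.

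Members were grouped by how far their annotated transcripts run past the stem-loop, counting only transcripts that hold one where a member has any. In 21 members the transcript ended within 60 bases of it, and these are said here to end at the stem-loop. The annotated end lay 3 bases past it in Hist1h2ap, 46 in Hist1h4h and 57 in Hist2h2ac. The class is therefore not the same as the processed, tail-less mRNA, and the Hist1h4h transcript has a poly(A) signal near its end. Of the 21, Hist1h2bp also has an annotated transcript without a stem-loop. In 23 members the annotated transcript ran further, and in 6 members no transcript had a stem-loop but over 60 bases followed the stop codon. The remaining 17 were annotated to little beyond the coding region. The 23 extended members held 55.5% of all histone counts, the 6 without a stem-loop held 43.0%, and the 21 that end at the stem-loop held 1.30%. Most of that 1.30% was Hist1h4h, with 0.788% of all histone counts. Among the extended transcripts, that of Hist1h1c (chr13:23738808-23740367, plus strand) went on for 840 bases past the stem-loop, and that of Hist3h2a (chr11:58954685-58956830, plus strand) for 1643 bases. On the length-corrected FPKM scale, the 21 members that end at the stem-loop made up 3.60% of the family's level. These shares describe the annotation and the counts, and the 3′ ends of the RNA molecules themselves were not measured.

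The 12 pairs of H2A and H2B genes that start within 500 bases of each other on opposite strands share the stretch between their starts, and the pairs at the top differed most between partners. Summed over the 19 kidneys, Hist1h2bc had 31230 counts and its partner Hist1h2ac 247, although their starts lie 250 bases apart. Hist2h2be had 4455 counts and Hist2h2ac 30, with 238 bases between them. Of the 12 pairs, 9 had more counts at the H2B gene, and in 8 pairs at least 1 partner reached 20 counts. These counts are not corrected for length or for stretches shared between genes. Per length the order reversed for Hist1h2bq and Hist1h2ao (0.124 and 0.152 FPKM) and, the other way, for Hist1h2bf and Hist1h2ad (0.158 and 0.144 FPKM). The windows between these partners are shown because both genes of a pair start from them. They are RefSeq promoter windows (GRCm38.p6) of 250 bases before to 50 after the start of the H2A gene, on its minus strand. Capitals mark the letters CCAAT or TATAA, or the octamer ATTTGCAT, each searched on both strands.
Hist1h2ac window, chr13:23683910-23684209: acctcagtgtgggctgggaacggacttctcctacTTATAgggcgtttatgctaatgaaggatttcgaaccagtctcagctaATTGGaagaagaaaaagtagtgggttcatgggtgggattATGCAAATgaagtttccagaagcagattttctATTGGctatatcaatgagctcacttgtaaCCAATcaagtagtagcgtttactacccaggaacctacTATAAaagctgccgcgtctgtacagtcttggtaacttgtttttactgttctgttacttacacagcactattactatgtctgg
Hist2h2ac window, chr3:96220831-96221130: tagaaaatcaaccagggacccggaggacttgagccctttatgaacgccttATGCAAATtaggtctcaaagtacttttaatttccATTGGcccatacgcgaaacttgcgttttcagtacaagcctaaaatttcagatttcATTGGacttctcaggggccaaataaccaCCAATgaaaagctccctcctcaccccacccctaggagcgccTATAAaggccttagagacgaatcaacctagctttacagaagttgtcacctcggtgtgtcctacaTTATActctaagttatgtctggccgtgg
Hist1h1c window, chr13:23738557-23738856, plus strand: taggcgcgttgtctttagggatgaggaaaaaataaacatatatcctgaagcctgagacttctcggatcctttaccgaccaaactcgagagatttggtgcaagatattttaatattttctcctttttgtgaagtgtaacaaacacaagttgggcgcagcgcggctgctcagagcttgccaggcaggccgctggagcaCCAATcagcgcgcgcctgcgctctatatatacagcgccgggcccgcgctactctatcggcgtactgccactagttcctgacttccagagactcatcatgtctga
Both shared windows held CCAAT as well as TATAA and the octamer ATTTGCAT, and only CCAAT was present in the window of Hist1h1c. Windows were matched for 61 members. CCAAT was found in 85.25% of them against 37.41% of all 32851 RefSeq windows, and it was in every H1, H2A, H2B and H3 window but in 3 of 12 H4 windows. TATAA was found in 78.69% against 24.87%. ATTTGCAT was found in 21.31% against 1.735%, in 7 of 18 H2A and 6 of 16 H2B windows and in no H1, H3 or H4 window. A match describes the letters of the window and is not evidence of binding.

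**Figure D1:**
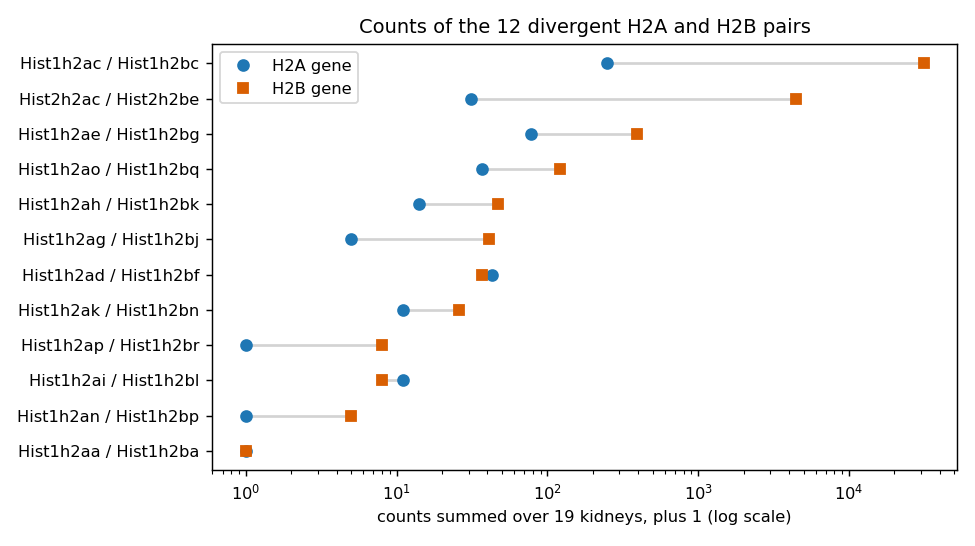
Counts summed over the 19 kidneys, plus 1 on a log axis, for the H2A gene (circle) and the H2B gene (square) of each of 12 divergent pairs. The H2B gene had more counts in 9 pairs, with the widest gaps at Hist1h2ac and Hist1h2bc (247 and 31230) and at Hist2h2ac and Hist2h2be (30 and 4455).

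In the obstructed kidneys 2 genes carried the family. Hist1h1c, which encodes a linker histone that binds between nucleosomes, and Hist1h2bc, which encodes a core histone H2B, together held 83.2% of all histone counts and 82.1% of the summed FPKM. Hist1h1c had 1581 to 3306 counts per kidney and Hist1h2bc 1119 to 2926. Per length, Hist1h2bc had a mean of 56.5 FPKM over the 19 kidneys and Hist1h1c 50.5 FPKM. Next in order were the H4 gene Hist1h4i at 4.16 FPKM, the H2B gene Hist2h2be at 3.41, the H4 gene Hist1h4h at 2.92, the H2A gene Hist3h2a at 2.92 and the H2B gene Hist3h2ba at 2.35. The highest H3 gene, Hist2h3c2, had 0.742 FPKM and the second, Hist1h3c, 0.169. The second H1 gene, Hist1h1e, had 0.217 FPKM and the second H2A gene, Hist1h2ae, 0.218. The family median was 0.116 FPKM, so the leaders stood far above the rest.

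**Figure D2:**
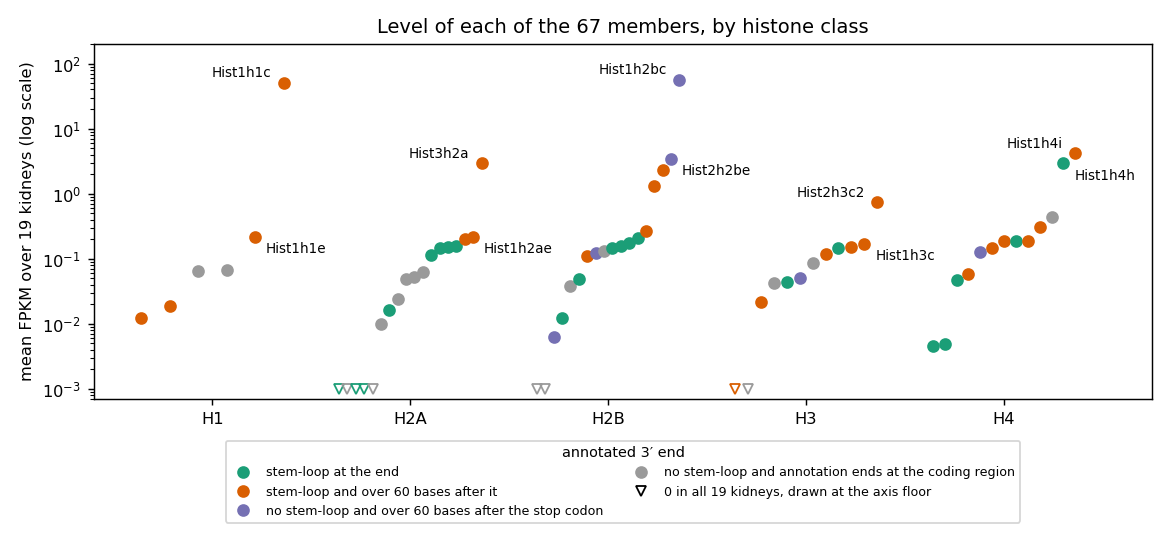
Mean FPKM over 19 kidneys on a log axis for each of the 67 members, by histone class and coloured by annotated 3′ end, with the 2 highest of each class named. Hist1h1c and Hist1h2bc sit at 50.5 and 56.5 FPKM, and 9 members at 0 are drawn as open triangles at the axis floor.

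Most members were near the limit of detection. The median member had 36 counts in all 19 kidneys together, and 28 of 67 had fewer than 20. The 6 genes listed as also made in a polyadenylated form (Hist1h1c, Hist1h2bc, Hist2h2be, Hist3h2a, Hist3h2ba and Hist4h4) included the leaders of the H1, H2A and H2B classes, but Hist4h4 had only 79 counts in all. Of the 3 genes known from male germ cells, Hist1h1t had 6 counts in all and Hist1h2ba and Hist1h2aa had 0. A count of 0 allows up to 3 counts per library of 17917491 to 23847090, for counting error only. In all, 9 members were at 0 in every kidney. For 5 of them (Hist2h2aa1, Hist2h2aa2, Hist2h2bb, Hist2h3b and Hist2h3c1) no stretch of 150 bases, the read length, was unique to the gene. No other member lacked unique stretches altogether. Also, 8 of the 9 overlapped another annotated gene, against 16 of the 58 with counts. How reads that match several genes were treated was not given in the sources used here, so a 0 for these genes says little about their expression. Hist1h1c was unique along 100% of such stretches and Hist1h2bc along 82.6%.

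The targeted gene matched the labels, since Cd5l had 3 to 15 counts in each WT kidney and 0 in each of the 9 CD5L KO kidneys. Markers of tubules and podocytes, macrophages, myofibroblasts, T and B cells, plasma cells, neutrophils, red cell precursors, epididymis and urothelium, from 5 to 8 genes per list, each had counts in at least 1 library. In all, 3 libraries stood apart, which was decided after their values were seen. CD5L KO kidney 1 given PBS and CD5L KO kidney 3 given rCD5L had 0.314% and 0.607% of counts in rRNA genes, against 0.0298% to 0.118% in the other 17. With PBS this share was 0.0698% to 0.314% in CD5L KO and 0.0298% to 0.0611% in WT kidneys, so the groups did not overlap. Leaving out CD5L KO kidney 1 does not remove that difference, and its part in the histone values was not tested. CD5L KO kidney 4 given rCD5L had 10.3% of counts from mitochondrial genes, against 2.34% to 4.55% in the other 18, and its scaling factor was 0.682 against 0.874 to 1.07.

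Levels in each kidney are CPM, counts brought to a common library size after scaling by the trimmed mean of M values (TMM). Hist1h2bc stood at 56.0, 56.3, 79.8, 60.05 and 65.4 CPM in the WT kidneys given PBS and at 64.6, 66.6, 50.8, 61.8 and 55.5 CPM in the WT kidneys given rCD5L. It stood at 79.4, 83.1, 109 and 82.8 CPM in the CD5L KO kidneys given PBS and at 73.6, 75.6, 110, 224 and 73.5 CPM in the CD5L KO kidneys given rCD5L. With PBS, 3 of 4 CD5L KO kidneys were above every WT kidney and the other one, which stood apart, was just under the highest WT kidney. With rCD5L, all 5 CD5L KO kidneys were above every WT kidney.

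Hist1h1c stood at 88.0, 75.8, 109, 92.9 and 78.0 CPM in the WT kidneys given PBS and at 88.8, 94.6, 72.9, 84.8 and 76.6 CPM in the WT kidneys given rCD5L. In the CD5L KO kidneys it stood at 94.5, 94.7, 134 and 92.7 CPM with PBS and at 80.6, 76.0, 159, 174 and 69.1 CPM with rCD5L. The groups overlapped throughout, and the 3 highest values all came from CD5L KO kidneys, 2 of them from libraries that stood apart. The other 65 members together had 32.0 ± 2.21 CPM (SD, n = 5) in WT kidneys given PBS, 32.4 ± 2.59 (n = 5) in WT kidneys given rCD5L, 37.9 ± 2.33 (n = 4) in CD5L KO kidneys given PBS and 36.9 ± 5.03 (n = 5) in CD5L KO kidneys given rCD5L.

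**Figure D3:**
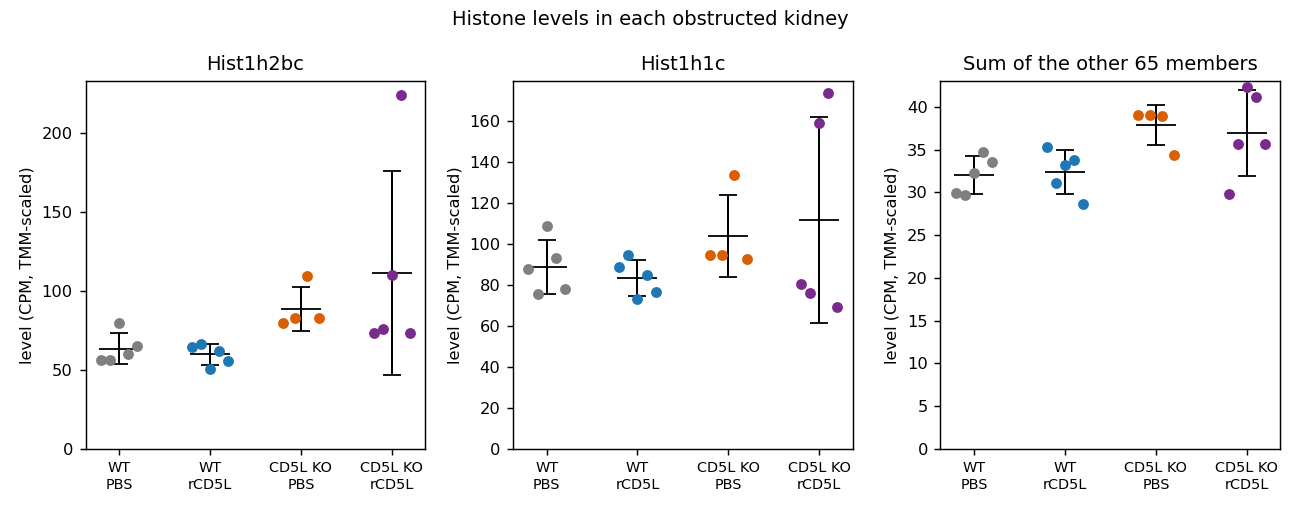
Level in CPM (TMM-scaled) of Hist1h2bc, of Hist1h1c and of the other 65 members summed, 1 point per kidney with the group mean and SD as bars. Hist1h2bc was higher in every CD5L KO kidney given rCD5L than in any WT kidney given rCD5L, and its highest value, 224 CPM, is a library that stood apart.

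Summed over all 67 members, WT kidneys had 184 ± 22.4 CPM with PBS (n = 5) and 176 ± 16.2 with rCD5L (n = 5), and CD5L KO kidneys had 231 ± 34.7 with PBS (n = 4) and 260 ± 115 with rCD5L (n = 5). The ratio of CD5L KO to WT means was 1.25 with PBS and 1.28 without the library that stood apart. With rCD5L it was 1.48, and 1.04 without the 2 libraries that stood apart. Without TMM factors these ratios were 1.22 with PBS and 1.23 with rCD5L, where the CD5L KO kidneys given rCD5L had 227 ± 54.5 CPM. The ratio of rCD5L to PBS in CD5L KO kidneys was 1.13 with TMM factors and 0.984 without them, so its direction depended on the scaling. By class with PBS, the CD5L KO to WT ratio was 1.18 for H1, 1.25 for H2A, 1.34 for H2B, 1.20 for H3 and 1.24 for H4. Without the library that stood apart these ratios were 1.21, 1.23, 1.37, 1.20 and 1.25. All 4 CD5L KO kidneys were above every WT kidney for the sums of H2B and of H4, but not for the other classes. In group means, Hist1h2bc gave 88.7 of 106 CPM of H2B in these CD5L KO kidneys and 63.5 of 78.9 in WT kidneys. Hist1h1c gave 104 of 105 CPM of H1 in CD5L KO and 88.7 of 89.2 in WT kidneys. The H2B and H1 ratios are thus largely those of 1 gene each. These sums describe levels and were not tested.

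The comparison of CD5L KO with WT kidneys given PBS asks how the histone genes stand when CD5L is absent from the obstructed kidney. Hist1h2bc was the only member that passed the test, at 88.7 ± 13.95 CPM (SD, n = 4) against 63.5 ± 9.86 (n = 5), a log2 fold change of 0.47 ± 0.12 (SE, edgeR quasi-likelihood test, adjusted p = 0.0229). That is 1 of 12 members tested, against 10.5% of all 17579 genes tested that passed in either direction and 5.13% that passed and were higher in CD5L KO kidneys. The call was lost without CD5L KO kidney 3 (log2 fold change 0.36, edgeR adjusted p = 0.0542), WT kidney 2 (0.43, adjusted p = 0.0583) or WT kidney 4 (0.46, adjusted p = 0.0612). It was kept without CD5L KO kidney 1, which stood apart (log2 fold change 0.52, edgeR adjusted p = 0.0328). It was also lost when all 19 libraries were fitted together (0.48, edgeR adjusted p = 0.499), where 12 genes passed in all.

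Next by unadjusted p were Hist1h1e and Hist3h2a, and neither passed. Hist1h1e, another linker histone, had 0.0884, 0.125, 0.284, 0.644 and 0.460 CPM in WT kidneys and 0.721, 0.346, 1.37 and 0.465 CPM in CD5L KO kidneys, a log2 fold change of 1.19 ± 0.55 (edgeR adjusted p = 0.194). It rested on 2 to 12 counts per WT kidney and its groups overlapped, and its annotation overlaps that of Hist1h2be. Hist3h2a, which overlaps Trim17, differed by 0.31 ± 0.15 on the log2 scale (edgeR adjusted p = 0.208). Hist1h1c differed by 0.22 ± 0.12 (adjusted p = 0.277), Hist1h4i by 0.27 ± 0.18, Hist1h4h by 0.45 ± 0.31, Hist2h3c2 by 0.30 ± 0.30, Hist3h2ba by 0.14 ± 0.30 and Hist2h2be by 0.05 ± 0.10. All 12 members tested had a log2 fold change above 0, as had 8666 of all 17579 genes, and the medians were 0.29 for the members and -0.00 for all genes. The 12 had to pass a filter on low counts, so neither this count nor the median is a test.

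Length moved with this comparison over all genes, which were split by length into 4 groups of nearly equal size. In the shortest group, 57 to 2227 bases of exon, the median log2 fold change was 0.12 and 8.99% passed as higher in CD5L KO kidneys. In the longest group, 6114 bases and above, the median was -0.08 and 1.84% passed as higher. Hist1h2bc is counted over 1156 bases and Hist1h1c over 1560, and of the 12 members tested only Hist2h2be, Hist1h2be and Hist1h2ac exceed the shortest group. The part of length in the histone values was not tested.

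**Figure D4:**
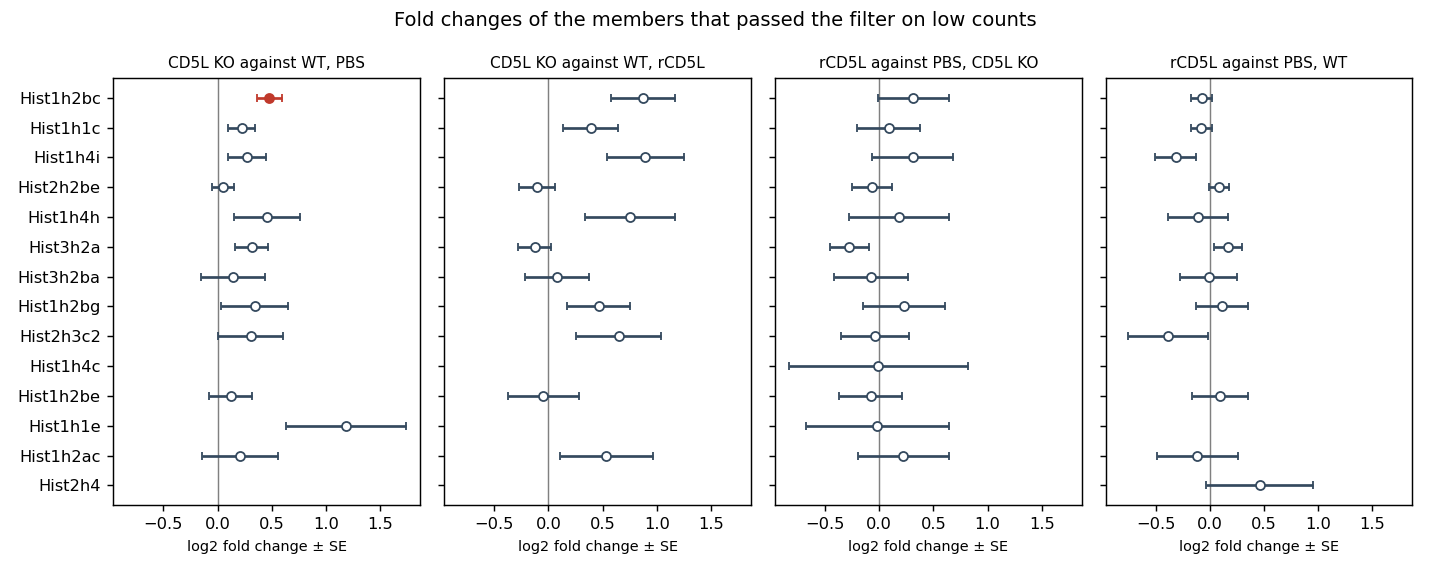
Log2 fold change ± SE (edgeR) of each member that passed the filter on low counts, in 4 comparisons, with a filled point where adjusted p was below 0.05. Only Hist1h2bc, in CD5L KO against WT kidneys given PBS, is filled, at 0.47.

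In kidneys given rCD5L, 0 of 11 members tested passed between CD5L KO and WT, where 0% of 17360 genes passed with edgeR, 3090 genes had an unadjusted p below 0.05 and DESeq2 called 64. Hist1h2bc again had the smallest unadjusted value, with 111 ± 64.9 CPM (n = 5) in CD5L KO against 59.9 ± 6.59 (n = 5) in WT. The log2 fold change was 0.87 ± 0.29 (edgeR adjusted p = 0.259), and 0.45 without CD5L KO kidney 4 alone. Its 2 groups did not overlap. When all 19 libraries were fitted together Hist1h2bc passed (0.89, edgeR adjusted p = 0.0418), as did 1291 genes in all. Without the 2 libraries that stood apart the log2 fold change was 0.30 (edgeR adjusted p = 0.0582), with CD5L KO kidneys at 73.5, 73.6 and 75.6 CPM still above the highest WT value of 66.6. Hist1h4i stood at 3.09, 3.05, 7.16, 9.11 and 2.75 CPM in CD5L KO kidneys and at 2.84, 3.03, 2.70, 2.87 and 1.71 CPM in WT kidneys. The log2 fold change was 0.90 ± 0.36 (edgeR adjusted p = 0.259). Its 2 high values were the 2 libraries that stood apart. Hist1h4h differed by 0.75 ± 0.41 (edgeR adjusted p = 0.344). Hist1h1c differed by 0.39 ± 0.25 (adjusted p = 0.409), and by -0.16 without those 2 libraries. The median log2 fold change of the members tested was 0.47 against -0.01 over all genes, and 0.06 without those libraries. Length moved with this comparison too, with a median log2 fold change of 0.15 in the shortest of the 4 length groups and -0.13 in the longest, and its part in the histone values was not tested.

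The comparison of rCD5L with PBS within a genotype asks what the injected protein did. In CD5L KO kidneys 0 of 13 members tested passed, where 0% of 17467 genes passed with edgeR, 502 had an unadjusted p below 0.05 and DESeq2 called 3. Hist3h2a differed by -0.27 ± 0.18 on the log2 scale (edgeR adjusted p = 0.897), Hist1h2bc by 0.31 ± 0.33 (adjusted p = 0.901) and Hist1h4i by 0.31 ± 0.38 (adjusted p = 0.913). The direction for the leaders depended on the libraries that stood apart. Without them, Hist1h2bc differed by -0.30 (edgeR adjusted p = 0.496) and Hist1h1c by -0.51 (adjusted p = 0.430), where with them Hist1h1c differed by 0.09. Without CD5L KO kidney 4 given rCD5L alone, Hist1h2bc differed by -0.10. The median of the members tested was -0.01 against 0.02 over all genes.

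In WT kidneys 0 of 12 members tested passed, where 0% of 17455 genes passed with edgeR, 2797 had an unadjusted p below 0.05 and DESeq2 called 508. Hist1h4i differed by -0.31 ± 0.19 (edgeR adjusted p = 0.438), Hist3h2a by 0.17 ± 0.13 (adjusted p = 0.565) and Hist2h3c2 by -0.39 ± 0.37 (adjusted p = 0.649). Hist1h2bc differed by -0.08 ± 0.10 and Hist1h1c by -0.08 ± 0.09. Their approximate 95% intervals were -0.27 to 0.12 and -0.26 to 0.11 on the log2 scale. These intervals take the SE under a normal approximation, so they are somewhat narrow for so few kidneys. The median was -0.04 against 0.00 over all genes. Whether rCD5L acted differently in the 2 genotypes was tested as an interaction over all 19 kidneys, and 0 of 14 members tested passed, where 0% of 18454 genes passed with edgeR, 1154 had an unadjusted p below 0.05 and DESeq2 called 0. The smallest unadjusted values were those of Hist3h2a (log2 difference -0.42 ± 0.21, edgeR adjusted p = 0.731), Hist1h4i (0.64 ± 0.43, adjusted p = 0.735) and Hist2h4 (-0.86 ± 0.70, adjusted p = 0.777). The comparisons share groups of kidneys, so their values are not independent.

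Genes that make and process histone mRNA were compared in the same kidneys. Slbp had 35.7 ± 1.21 CPM in WT and 36.5 ± 3.69 in CD5L KO kidneys given PBS, with an edgeR log2 fold change of 0.02 ± 0.07 (adjusted p = 0.866). Npat had 28.9 ± 2.82 and 27.6 ± 2.29 CPM, with a log2 fold change of -0.07 ± 0.09 (edgeR adjusted p = 0.643). Of 22 genes tested on the list of histone mRNA transcription and processing, Snrpd3, a core protein of spliceosomal particles, rose in CD5L KO kidneys given PBS (0.20 ± 0.06, edgeR adjusted p = 0.0373) and Srrt, which links the cap-binding complex to RNA processing, fell (-0.29 ± 0.06, adjusted p = 0.0112). Without CD5L KO kidney 1, which stood apart, Srrt passed (edgeR adjusted p = 0.0293) and Snrpd3 did not (adjusted p = 0.0838). Of 11 genes listed as replication-independent histones, whose mRNA is as a rule polyadenylated and also made outside S phase, H3f3a rose (0.28 ± 0.06, edgeR adjusted p = 0.0107). Its level went from 243 ± 8.498 to 297 ± 18.5 CPM. The list of 22 thus held 2 genes that passed and the list of 11 held 1, where 10.5% of all genes passed. In the other comparisons 0% of all genes passed, so no list could hold one.

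Genes of the cell cycle were counted in CD5L KO against WT kidneys given PBS, where 10.5% of all genes passed. Of 40 S-phase genes tested 2 rose and 1 fell, with a median log2 fold change of -0.05. Rfc4, of the clamp loader (0.47 ± 0.11, edgeR adjusted p = 0.0219), and Prim1, of DNA primase (0.33 ± 0.08, adjusted p = 0.0261), rose, and Dnmt1, the maintenance DNA methyltransferase, fell (-0.27 ± 0.07, adjusted p = 0.0262). Without CD5L KO kidney 1, Rfc4 passed (edgeR adjusted p = 0.0359), and Prim1 (adjusted p = 0.0704) and Dnmt1 (adjusted p = 0.0741) did not. Pcna, the replication clamp, differed by 0.08 ± 0.07 (edgeR adjusted p = 0.519) and Mcm5, of the replicative helicase, by -0.17 ± 0.11 (adjusted p = 0.350). Of 30 G2 and M phase genes tested, 1 had a log2 fold change above 0, the median was -0.20, and Ncapd2, a condensin subunit, fell (-0.37 ± 0.10, edgeR adjusted p = 0.0313), a call lost without CD5L KO kidney 1 (adjusted p = 0.0660). Mki67, a marker of dividing cells, differed by -0.12 ± 0.12 (adjusted p = 0.578) and Top2a by -0.11 ± 0.12 (adjusted p = 0.640). With rCD5L against PBS, the G2 and M phase median was 0.25 in CD5L KO and 0.15 in WT kidneys, where 0% of all genes passed.

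Across the 19 kidneys the family's summed CPM ran against Mki67, with Pearson r = -0.63 and Spearman rho = -0.56 on log2 levels, and r = -0.70 over the 17 kidneys left without the 2 farthest in Mki67. Over deviations from the group means r was -0.64. Over the 16 kidneys that did not stand apart r was -0.48. For the summed S-phase genes r was -0.18 over 19 kidneys, -0.48 over 17 and -0.57 over 16. For the summed G2 and M phase genes r was -0.44 over 19 kidneys, -0.14 over 17 and -0.53 over 16, so the size of both rested on a few libraries. The sum is mostly Hist1h1c and Hist1h2bc, and the 53 members that were tested in no comparison gave other values. Their sum gave r = -0.27 with Mki67 over 19 kidneys, -0.15 over 17, -0.45 over 16 and -0.13 over deviations from group means. With the S-phase genes it gave 0.26, -0.20, -0.33 and 0.44 in the same order, and with the G2 and M phase genes 0.02, 0.02, -0.47 and 0.26. The kidneys with the highest histone sums, at 439, 311 and 282 CPM, had 28.1, 39.9 and 37.1 CPM of Mki67, where the 19 kidneys ranged from 28.1 to 62.6. These are descriptions over kidneys that share 4 groups, a common scaling and mixed cell makeup.

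Hist1h2bc followed the mitochondrial share of each library more closely than any cell-cycle measure computed. On the log2 scale r was 0.95 and rho 0.95 over 19 kidneys, r was 0.85 over 17 without the 2 farthest in that share, and r was 0.89 over the 16 kidneys that did not stand apart. Over deviations from group means r was 0.96. The mitochondrial share was 3.19 ± 0.414% in WT kidneys given PBS and 3.92 ± 0.475% in CD5L KO kidneys given PBS, so its mean moved with the comparison in which Hist1h2bc passed, with the groups overlapping at 2.76% to 3.87% and 3.40% to 4.55%. Hist1h1c gave r = 0.80 over 19 kidneys and 0.70 over 16. CD5L KO kidney 4 given rCD5L, with the highest Hist1h2bc, also had the highest summed level of tubule and podocyte markers, 13774 CPM against 2692 to 5328 in the other 18, and the lowest of myofibroblast markers, 1276 CPM. Their part in the histone values was not tested.

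Reads of tail-less RNA varied between libraries in another way. Rn7sk, the RNA polymerase III transcript 7SK, which has no poly(A) tail, had 3.85 ± 1.22 CPM in WT kidneys given PBS and 54.6, 9.77, 13.9 and 9.87 CPM in CD5L KO kidneys given PBS. The edgeR log2 fold change was 2.51 ± 0.50 (adjusted p = 0.00987). Without the library at 54.6 CPM, which stood apart, it was 1.53 ± 0.24 (edgeR adjusted p = 0.0157), and the ratio of means went from 5.72 to 2.90. It reached 106 CPM in CD5L KO kidney 3 given rCD5L, and the other 4 kidneys of that group lay between 1.84 and 3.37. Rmrp had 0 counts in all 19 kidneys and Rpph1 had 1, and both are also RNAs without a tail. The 53 histone genes that were tested in no comparison, most of them with few counts, summed to 8.03 CPM in CD5L KO kidney 3 given rCD5L and to 2.15 to 5.31 CPM elsewhere. Their sum was 3.35 ± 0.243 CPM (n = 5) in WT and 4.51 ± 0.606 (n = 4) in CD5L KO kidneys given PBS, and these groups did not overlap, at 3.08 to 3.63 against 3.98 to 5.31 CPM.

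Over the 19 kidneys the sum of these 53 genes gave r = 0.83 and rho = 0.69 with Rn7sk, r = 0.66 over the 17 kidneys without the 2 farthest in Rn7sk, r = 0.64 over the 16 that did not stand apart, and r = 0.79 over deviations from group means. With the rRNA share r was 0.85. Hist1h2bc gave r = 0.26 with Rn7sk over 19 kidneys, 0.11 over 17, 0.65 over those 16 and -0.05 over deviations from group means. Hist1h1c gave 0.43, 0.17, 0.56 and 0.32 in the same order. The values of the leading genes thus depended on which kidneys were counted, and differences between these values of r were not tested. The sum of the 21 members that end at the stem-loop is mostly Hist1h4h, with 0.788% of all histone counts where the 21 held 1.30%. Summed, these 21 gave r = 0.56 and rho = 0.22 with Rn7sk over 19 kidneys, r = 0.16 over 17, r = 0.49 and rho = 0.09 over 16, and r = 0.47 over deviations from group means. With the mitochondrial share they gave r = 0.71 and rho = 0.59. Small nuclear and nucleolar RNAs, which were 49.6 ± 2.41 CPM in WT and 44.3 ± 3.51 in CD5L KO kidneys given PBS, gave r = -0.37 with the 53 genes over 19 kidneys and 0.10 over 16. With the leading genes r was below 0 in each of these sets of kidneys, at -0.71 over 19, -0.77 over 17 and -0.51 over 16 for Hist1h1c, and at -0.58, -0.63 and -0.46 for Hist1h2bc. With the 21 members that end at the stem-loop they gave r = -0.47 and rho = -0.11 over 19 kidneys, and r = 0.11 and rho = 0.33 over 16. All of these are descriptions over the same libraries.

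**Figure D5:**
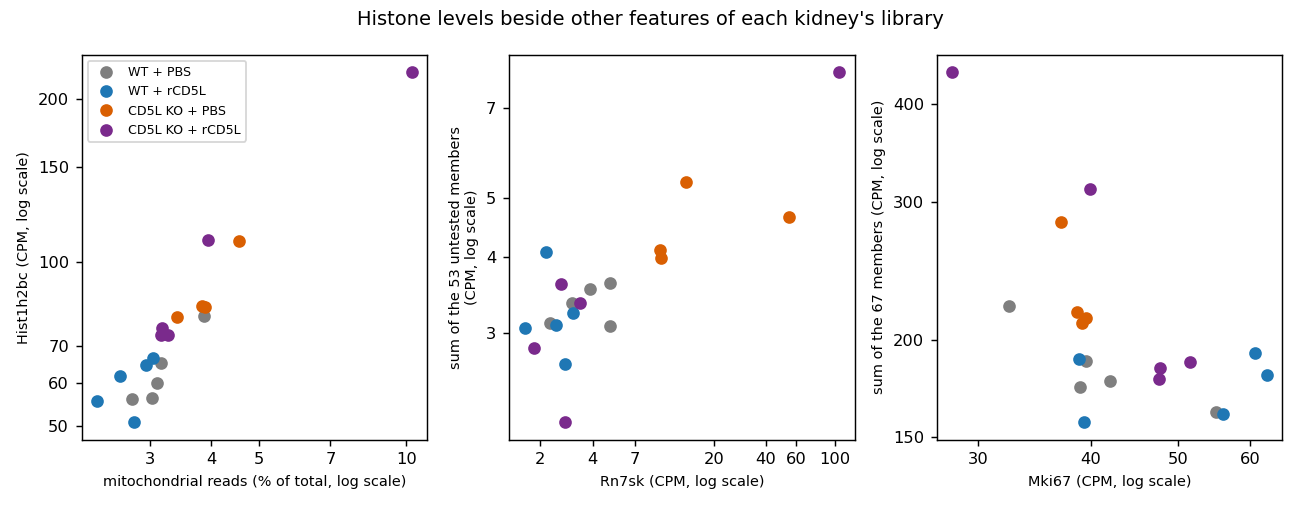
Each point is 1 kidney, on log axes. Hist1h2bc against the mitochondrial share of counts (r = 0.95), the sum of the 53 untested members against Rn7sk (r = 0.83), and the sum of all 67 members against Mki67 (r = -0.63), with colours for the 4 groups and r given as a description over 19 kidneys.

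Markers of other cell types were counted in the same comparison of CD5L KO with WT kidneys given PBS, where 10.5% of all genes passed. Of 6 myofibroblast markers 4 fell, with a median log2 fold change of -0.57, and their sum was 2496 to 3454 CPM in CD5L KO against 3648 to 5709 CPM in WT kidneys. Of 6 macrophage markers 1 fell. None of the lists of tubules and podocytes, T and B cells, plasma cells, neutrophils, red cell precursors, epididymis and urothelium held a gene that passed, with 4 to 8 genes tested per list and 40 in all. The 6 urothelium markers had a median log2 fold change of 0.76. Their part in the histone values was not tested.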

How the data were processed

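Whole obstructed kidneys of 19 mice were profiled by paired-end RNA-seq with 150-base reads. Per the labels and methods, the authors trimmed reads with Trimmomatic, aligned them with HISAT2 to GRCm38 (mm10) and counted them with featureCounts. Tool versions, the strand setting and the treatment of reads matching several genes are not given in the sources used here. The deposited counts are whole reads per gene, with no normalization. The deposited FPKM values, scaled by the authors for gene length, were used to compare genes. They are not scaled by total count alone, since the library size they imply was 0.881 to 1.29 times the total count but 1.20 to 1.29 times the TMM-scaled total. How this scaling between libraries was made is not given in the sources used here. The members and gene lists were chosen with earlier results of these data known. Each comparison of 2 groups was fitted on its own groups with edgeR 4.0.16 (limma 3.58.1, R 4.3.3) by glmQLFit and glmQLFTest, with TMM factors, a filter at a minimum count of 10, and Benjamini-Hochberg adjustment over all genes tested, with a threshold of 0.05. The interaction used all 19 libraries. The 4 fits share groups.

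Named members are the 2 with the highest mean FPKM per class, those that passed, the 3 smallest unadjusted p-values per comparison, and members listed as polyadenylated or germ-cell forms. Hist1h2ac, Hist2h2ac, Hist1h2be, Hist1h4c, Hist1h4n, Rn7sk and the members at 0 were named after their values were seen, as were the 3 libraries that stood apart. The same holds for Hist1h2bp, Hist1h2bq, Hist1h2ao, Hist1h2bf and Hist1h2ad. Levels are CPM after TMM scaling. Correlations use log2 levels. Stem-loops were searched in GENCODE M21 transcripts and promoter motifs in RefSeq windows. Total counts were 17917491 to 23847090 per library, which gives low precision for members with few counts. Other settings tried were a replicate block, 1 fit of all 19 libraries, DESeq2 1.42.0, size factors by RLE, no count filter or one of 10 counts per library, sums in FPKM, without TMM factors or without the leading member, and leaving out libraries. The fits were tested on simulated data.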

Additional observations from a re-analysis of the deposited data

Results flagged for a closer look

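The gap between the highest or lowest kidney and its nearest neighbour was large against the range of its group for 7 of 72 groups of values examined, where chance gives about 1 in 20. CD5L KO kidney 3 given PBS was high for Hist1h2bc (109 CPM, others 79.4 to 83.1), for Hist1h1c (134 CPM, others 92.7 to 94.7) and for the sum of the 67 histone genes (282 CPM, others 210 to 217), and without it the call of Hist1h2bc against WT kidneys was lost. CD5L KO kidney 4 given rCD5L was high for Hist1h2bc (224 CPM, others 73.5 to 110). CD5L KO kidney 3 given rCD5L was high for the sum of the 53 histone genes tested in no comparison (8.03 CPM, others 2.15 to 3.61). CD5L KO kidney 4 given PBS was low for the sum of the 65 histone genes other than Hist1h1c and Hist1h2bc (34.4 CPM, others 39.0 to 39.1). WT kidney 5 given rCD5L was low for Hist1h4i (1.71 CPM, others 2.70 to 3.03). The causes were not tested.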

How the results depend on the processing

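In CD5L KO against WT kidneys given PBS, 1 histone gene passed with edgeR, with DESeq2, with RLE factors, without a filter, with at least 10 counts in every library and without the library that stood apart. With all 19 libraries in 1 fit, which shares 1 estimate of spread over the 4 groups, 0 passed there, and 1 passed between CD5L KO and WT kidneys given rCD5L, where 0 passed otherwise. Hist1h2bc was the gene in both cases (log2 fold change 0.48, adjusted p = 0.499, and 0.89, adjusted p = 0.0418). The cause was not tested. Leaving out 1 library gave 0 to 1 genes with PBS and 0 in the other comparisons. Medians of the members tested ranged over leave-one-out from 0.21 to 0.34 (CD5L KO against WT, PBS), 0.29 to 0.57 (rCD5L), -0.06 to 0.24 (rCD5L in CD5L KO) and -0.10 to 0.04 (rCD5L in WT). Ratios of summed levels ranged from 1.16 to 1.32, 1.22 to 1.59, 0.933 to 1.22 and 0.926 to 1.004. Leaving out all libraries that stood apart, chosen after seeing the data, moved the median with rCD5L from 0.47 to 0.0624, its ratio of sums from 1.48 to 1.04, and the ratio of rCD5L to PBS in CD5L KO kidneys from 1.13 to 0.775. Without TMM factors the ratio of rCD5L to PBS in CD5L KO kidneys was 0.984 instead of 1.13, and that of CD5L KO to WT with rCD5L was 1.23 instead of 1.48. Apart from the moves just given for leaving out all libraries that stood apart, the alternatives moved the medians and ratios by less than the spread between kidneys. Deviations of same-numbered kidneys from their group means gave r from -0.19 to 0.17. For rCD5L against PBS in CD5L KO kidneys all were above 0, at 0.174, 0.100, 0.143 and 0.0165. As the values were small, replicate numbers were not taken as pairs. With the replicate block, 1 member passed in CD5L KO against WT given PBS and 0 elsewhere. All genes called there went from 1850 to 2132 with the block, to 2571 with DESeq2 and to 12 with all 19 libraries in 1 fit. Without the library that stood apart it was 1038. With rCD5L, where edgeR called 0, DESeq2 called 64 genes, the fit of all 19 libraries 1291 and the fit without the libraries that stood apart 644. For rCD5L against PBS, DESeq2 called 3 genes in CD5L KO and 508 in WT kidneys, the fit without a filter 137 in WT, and the fit without the libraries that stood apart 1 in CD5L KO. In all, 53 of the 67 members did not pass the filter on low counts in any comparison, and 5 of these had no stretch of read length unique to the gene.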

Other observations

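Outside the 67 genes, 3 histone pseudogene rows matched the same names. Hist3h2bb-ps, beside Hist3h2ba, had 59 counts over the 19 kidneys, with 0 to 8 per kidney, against 721 for Hist3h2ba. Hist1h2al had 1 count and Hist1h2aj had 0. Hist1h4n, an H4 gene, had 17 of its 41 counts in CD5L KO kidney 3 given rCD5L, and Hist1h4c had 26 of 118 there. Hist1h3c had 4 to 10 counts in each CD5L KO kidney given PBS and 1 to 3 in each WT kidney given PBS, but 0 or 1 in 4 of 5 CD5L KO kidneys given rCD5L and 10 in the other, and it was below the filter on low counts. Hist1h3c was named by its level, and the other genes were named after their values were seen. Hist1h4c did not pass for rCD5L against PBS in CD5L KO kidneys (log2 fold change -0.01 ± 0.83, edgeR adjusted p = 0.999). It did not pass in the interaction either (1.29 ± 1.11, edgeR adjusted p = 0.795). The other values given here were not tested.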
